A study of Mus musculus with 4 samples.

Results

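Genes for the pore-forming subunits of 4 branches of the potassium channel superfamily were examined in mouse lateral habenula: the Kv1, Kv2 and Kv3 channels with the silent Kv subunits, the EAG, ERG and ELK channels, the sodium-activated slack and slick channels, and the two-pore channels. Members were all protein-coding genes with a symbol beginning Kcna, Kcnb, Kcnc, Kcnf, Kcng, Kcnh, Kcnk, Kcns, Kcnt or Kcnv followed by a number, and with at least 10 counts summed over the libraries. Of 48 genes with such a symbol, 43 met the minimum, among 53465 gene identifiers in the table. The lateral habenula, a small nucleus above the thalamus, had been taken from C57BL/6 mice that were group-housed (2 libraries) or socially isolated (2 libraries), and poly(A) RNA was sequenced. The labels name no transgene or drug, and state neither the age and sex of the mice, nor how long isolation lasted, nor whether a library came from 1 animal or a pool. A p-value therefore reflects the spread among these 4 libraries alone, part of which may be technical.

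Potassium channels set how readily a neuron fires. Two-pore channels carry the leak current that holds the resting potential, Kv1 channels act near threshold in axons, Kv2 channels repolarise the soma and proximal dendrite, and Kv3 channels end spikes quickly enough for fast firing. The silent subunits of the Kcnf, Kcng, Kcns and Kcnv genes form no channel alone and assemble with Kv2 subunits, EAG-type channels gate slowly, and slack channels open with entry of sodium. Principal neurons of the lateral habenula are glutamatergic and fire tonically or in bursts, and potassium conductances are among those that set the mode.

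All 43 genes share the short stretch of coding sequence that builds the selectivity filter, the narrowest part of the pore. The potassium channel signature was searched in frame in the longest annotated coding sequence of each gene, as a codon for threonine or serine, any codon, a glycine codon, a codon for tyrosine, phenylalanine or leucine, a glycine codon, and a codon for aspartate, asparagine, histidine or serine. It was present in 43 of 43 channel genes and in 320 of 21679 protein-coding genes (1.48%), the 43 among them. The codons allowed take in variants of the signature, so its presence in all 43 describes these genes and tests nothing. The Kv, EAG-type and slack genes held it once each. Of the 11 two-pore genes, whose subunit carries a pair of pore loops, 8 held it 2 times, while Kcnk6, Kcnk12 and Kcnk13 held 1 copy in these letters. The stretches below, from GENCODE M21 transcripts on GRCm38, are those of 6 genes with small p-values described further on and of the gene with the highest level, and the capitals mark the signature.
Kcna2: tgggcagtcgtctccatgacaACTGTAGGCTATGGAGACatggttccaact
Kcna4: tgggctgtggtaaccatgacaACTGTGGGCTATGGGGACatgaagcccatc
Kcng4: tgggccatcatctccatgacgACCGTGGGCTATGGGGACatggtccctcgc
Kcnc2: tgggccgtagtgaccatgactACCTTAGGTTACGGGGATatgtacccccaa
Kcnc4: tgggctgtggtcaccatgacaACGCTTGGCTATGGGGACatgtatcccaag
Kcnh3: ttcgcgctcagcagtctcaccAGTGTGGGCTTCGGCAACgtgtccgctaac
Kcnk9, first pore: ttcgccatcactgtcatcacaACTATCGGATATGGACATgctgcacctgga
Kcnk9, second pore: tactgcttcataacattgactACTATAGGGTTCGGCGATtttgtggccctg
Each stretch has 51 bases and lies in coding exon sequence. They lie at chr3:107105203-107105253 on the plus strand for Kcna2, chr2:107296474-107296524 plus for Kcna4, chr8:119625895-119625945 minus for Kcng4, chr10:112456208-112456258 plus for Kcnc2, chr3:107447784-107447834 minus for Kcnc4 and chr15:99232908-99232958 plus for Kcnh3. The second pore of Kcnk9 lies at chr15:72512704-72512754 on the minus strand. The stretch of its first pore has its outer ends at 72513022 and 72546024 and is split by an intron within them. Among the Kv genes and the silent subunit gene shown, a pair had 33 to 43 of 51 bases in common. Pairs within a subfamily were not the closest: Kcna4 and Kcnc4 shared 43, while Kcna2 and Kcna4 shared 39 and Kcnc2 and Kcnc4 38. The pair of pores of Kcnk9 shared 24 bases with each other, and Kcnh3 shared 23 to 28 with the Kv genes shown.

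Library totals ran from 20897605 to 26428152 counts, and 210270 counts in all fell on the 43 genes. Values are given as CPM (counts scaled to a common library size, after TMM normalisation), where 3 counts, the limit that a count of 0 allows, correspond to 0.113 to 0.146 CPM. Of the 43 genes, 40 passed edgeR's default filter on low counts and were tested. Kcng3, Kcnk7 and Kcnv2 did not pass, with 25, 20 and 12 counts over all libraries. Of the 5 genes under the minimum, Kcna7, Kcnk15, Kcnk16 and Kcnk18 had 0 counts in every library, and Kcna10 had 3 in all. Exons of 11 of the 43 genes overlap those of another annotated gene, on the opposite strand in all but Kcnk4, and the labels do not state whether reads were counted by strand. Markers of the lateral habenula were present in every library, with summed levels over 9 genes of 2026 and 1925 CPM in group-housed and 2110 and 1869 CPM in isolated replicates 1 and 2. Of its defining genes, the orphan receptor gene Gpr151 lay between 352 and 426 CPM. Among the 9 genes, 4 had both isolated libraries above both group-housed ones (17.4% of all genes) and 1 below (16.3%). Markers of neighbouring tissue varied between libraries: isolated replicate 2 had the lowest level of thalamic and the highest of ependymal markers, and both isolated libraries had more medial habenula transcripts than either group-housed one. Isolated means were lower for 10 of 10 thalamic markers (7 with both isolated libraries below, median log2 fold change -0.44). For 7 of 7 ependymal markers they were higher (6 with both isolated libraries above, median 0.79). Choroid plexus markers summed to 26.6 and 136 CPM in group-housed and 47.9 and 60.9 CPM in isolated replicates 1 and 2. Means were lower in the isolated libraries for 12 of 12 oligodendrocyte markers (9 with both isolated libraries below, median log2 fold change -0.22). They were also lower for 6 of 6 oligodendrocyte precursor markers (3 below, -0.14), 8 of 10 astrocyte markers (6 below, -0.12) and 10 of 10 microglial markers (6 below, -0.12). None of these markers passed the test, and 16.3% of all genes had both isolated libraries below. The part of these cell types in the lower values of channel genes was not tested. In bulk tissue, fewer cells of a type and less RNA per cell cannot be told apart.

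No potassium channel gene passed the test between isolated and group-housed libraries. With edgeR (quasi-likelihood F test, Benjamini-Hochberg adjustment over all 17528 tested genes), 0 of 40 channel genes passed, beside 2 of all genes as higher (0.0114%) and 0 as lower (0%). The 2 genes called, Slc5a7 and Chrnb3, belong to the list of medial habenula markers and not to the channel genes. DESeq2, limma-voom and edgeR's exact test also called 0 channel genes, with 0.302% of all genes called by DESeq2 and 0.468% by the exact test. Before adjustment, 4 channel genes had a quasi-likelihood p below 0.05 and were higher (Kcnk9, Kcng4 and Kcnh3 among them, beside 2.83% of all genes) and 3 such genes were lower (Kcna4, Kcnc4 and Kcnc2, beside 2.26%). These are 7 of 40, or 17.5%, where 5.09% of all tested genes had such a p in either direction. After adjustment these lay between 0.780 and 0.941. Without group-housed replicate 1 the 4 higher genes became 0, and leaving out each library in turn gave 0 to 4 higher and 1 to 7 lower, the 7 without isolated replicate 1 and the 1 without isolated replicate 2. The isolated pair lay above the group-housed pair for 8 of 40 channel genes (17.4% of all genes) and below it for 7 (16.3%), shares near the background, while the groups overlapped for 25.

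The 40 genes had a median log2 fold change (isolated over group-housed) of -0.03, with 16 above and 24 below 0, where the median of all tested genes was 0.0033 and 51.2% lay above 0. For 18 of the 40 (45%) the difference was under 0.1 on the log2 scale, where 56.4% of all tested genes lay in that band. Standard errors ran from 0.06 to 0.41 with a median of 0.11. By subfamily, the median log2 fold change was 0.04 over 8 EAG, ERG and ELK genes, -0.03 over 8 silent Kv genes, -0.04 over 10 two-pore genes, -0.08 over the 2 slack and slick genes, -0.15 over 6 Kv1 genes and -0.18 over 4 Kv3 genes.

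**Figure D1:**
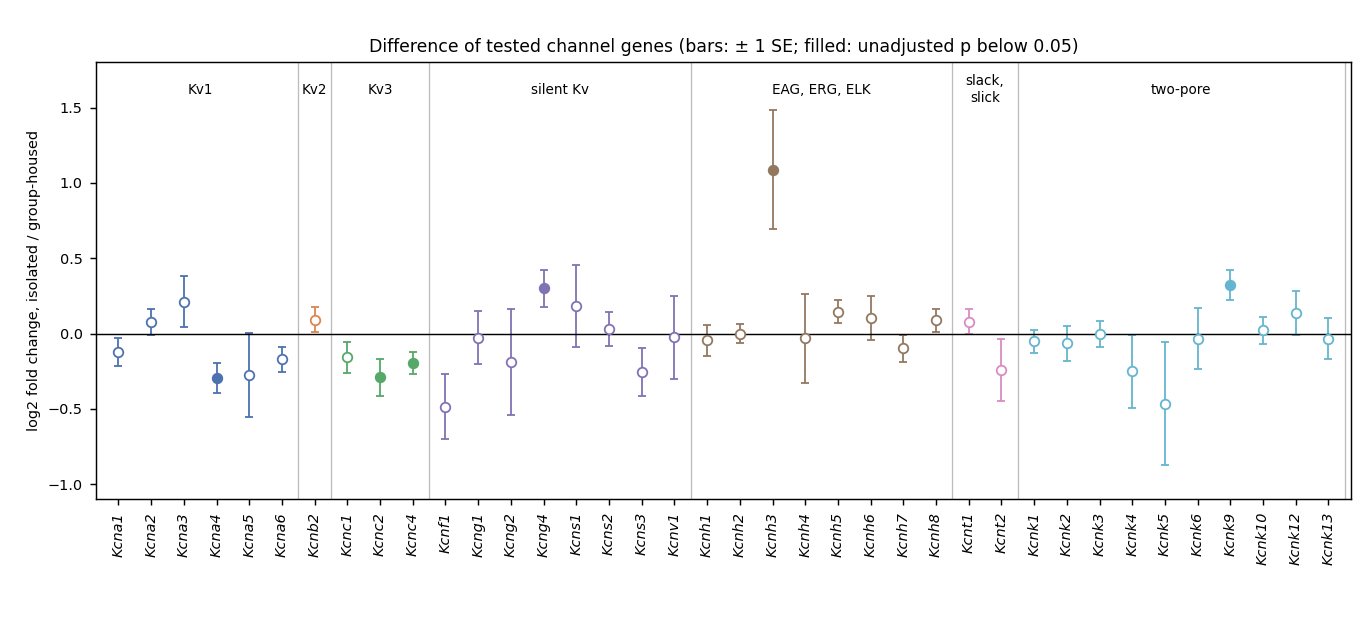
Log2 fold change of tested channel genes, isolated over group-housed (y axis), by subfamily (x axis), with bars of 1 SE and filled points for an unadjusted p below 0.05. Kcnc1, Kcnc2 and Kcnc4 lie below 0, Kcnk9 lies at 0.32, and Kcnh3, at 1.09, has one of the longest bars.

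Levels differed far more between members than between the housing groups. To compare genes, CPM was divided by the length of each gene's merged exons in kilobases. On this scale Kcna2 (mean 35.3 CPM per kilobase over the 4 libraries) and Kcnk1 (34.8) stood highest, followed by Kcng4 (30.3), Kcnc4 (29.1), Kcnh2 (23.9) and Kcna6 (22.7). These 6 genes held 50.2% of the summed level of the 43. Kcna2 and Kcnk1 overlapped in their library values (32.6 to 38.5 against 32.0 to 36.5), as did Kcng4 and Kcnc4, so the order within each pair is not resolved. Kcng4 (24.7 to 37.8) also overlapped Kcna2, Kcnk1 and Kcna6, so its place among the 6 is not resolved either. Kcnv2 (0.0239) and Kcng3 (0.0710) stood lowest. Kv1 genes made up 22.3 to 23.6% of the summed level in a library, Kv3 genes 19.3 to 23.1%, two-pore genes 17.7 to 18.3%, silent Kv genes 12.6 to 16.1%, EAG-type genes 13.1 to 13.99% and slack and slick 3.81 to 4.54%.

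**Figure D2:**
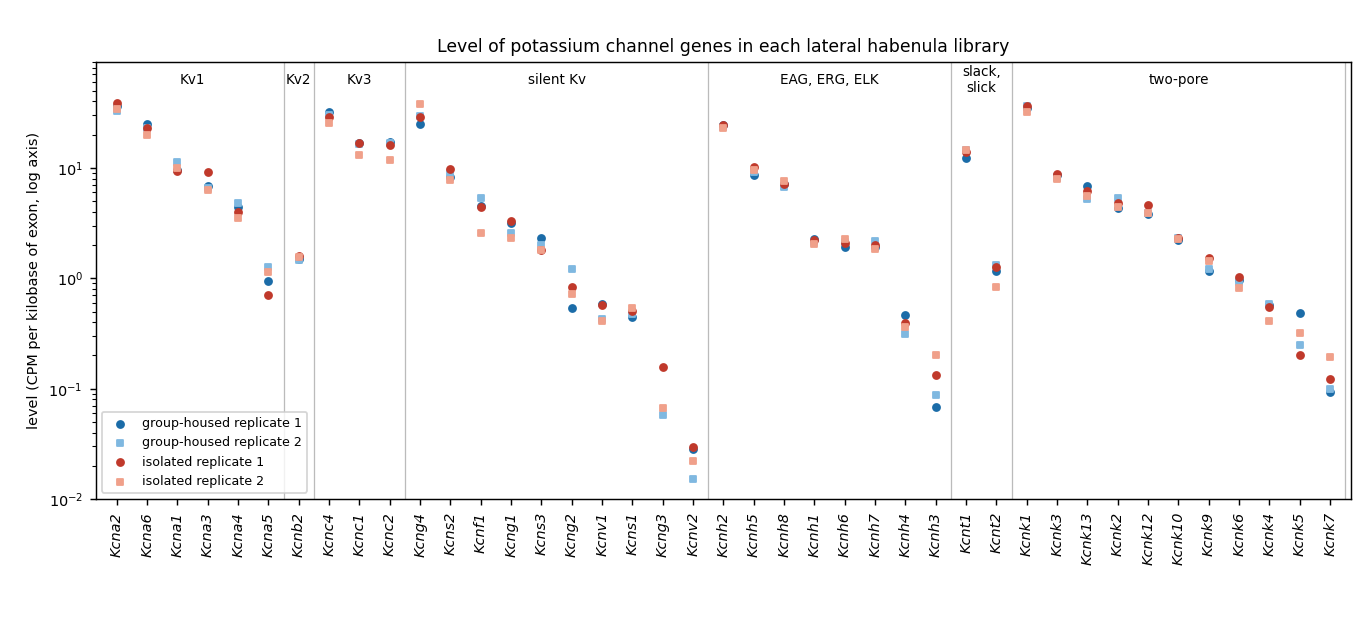
Level of channel genes in CPM per kilobase of exon (log y axis) in the 4 libraries, ordered by mean level within each subfamily (x axis). Each point is a library, and the point of Kcng3 in group-housed replicate 1 is absent because its count was 0. The libraries of a gene lie close together beside the spread between genes, from 0.0239 for Kcnv2 to 35.3 for Kcna2.

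Among the Kv1 genes, Kcna2, the main axonal subunit, measured 430 and 388 CPM in the group-housed and 458.5 and 405 CPM in the isolated replicates, so the groups overlapped (log2 fold change 0.08, SE 0.09). Kcna6, which assembles with other Kv1 subunits, measured 149 and 136.2 CPM in the group-housed and 135.5 and 118 CPM in the isolated libraries. Both isolated values of Kcna6 lay below both group-housed ones, the upper isolated value by little (log2 fold change -0.17, SE 0.08, edgeR adjusted p = 0.979), and its exons overlap the antisense gene Gm26673 over 2355 bases. The estimate for Kcna6 was -0.07 without isolated replicate 2, -0.10 without group-housed replicate 1 and -0.28 without isolated replicate 1. Kcna4, the Kv1 subunit that inactivates rapidly, measured 21.3 and 23.1 CPM in the group-housed and 19.3 and 16.9 CPM in the isolated replicates. The groups of Kcna4 did not overlap, with means of 22.2 ± 1.27 and 18.1 ± 1.69 CPM (SD, n = 2 per group), a log2 fold change of -0.30 (SE 0.10), and an edgeR quasi-likelihood adjusted p = 0.840 (unadjusted p = 0.0189). Kcna5, low in this tissue, measured 2.73 and 3.61 CPM in the group-housed and 2.02 and 3.24 CPM in the isolated libraries, and its groups overlapped (log2 fold change -0.28, SE 0.28).

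The 2 remaining Kv1 genes, Kcna1, an axonal low-threshold subunit, and Kcna3, also known from immune cells, gave log2 fold changes of -0.12 and 0.21 with overlapping groups. Kcna1, Kcna5 and Kcna6 are neighbours on chromosome 6, all on the minus strand between 126532551 and 126740674, and their levels were 10.03, 1.01 and 22.7 CPM per kilobase. Kcna3 and Kcna2 are neighbours on chromosome 3, both on the plus strand between 107036169 and 107115005, at 7.22 and 35.3 CPM per kilobase. Neighbouring genes of a cluster thus differed in level by several fold.

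Kcnb2, a Kv2 gene for a delayed rectifier, stood at 22.5 and 22.2 CPM in the group-housed and 24.2 and 23.5 CPM in the isolated libraries. Its groups did not overlap, yet the difference was little larger than its error (log2 fold change 0.09, SE 0.08). The estimate for Kcnb2 lay between 0.07 and 0.11 when any 1 library was left out and in all other settings tried.

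The silent subunits, which modify Kv2 channels, went both ways. Kcng4, the silent subunit gene with the highest level, measured 94.1 and 112 CPM in the group-housed and 111 and 144 CPM in the isolated replicates. The groups of Kcng4 overlapped, since isolated replicate 1 lay just below group-housed replicate 2, and the higher isolated mean (127 ± 23.3 against 103 ± 12.9 CPM, SD, n = 2 per group) came largely from isolated replicate 2. Its log2 fold change was 0.30 (SE 0.12), with an edgeR quasi-likelihood adjusted p = 0.941 (unadjusted p = 0.0411). Kcnf1, another silent subunit, measured 21.5 and 25.6 CPM in the group-housed and 21.35 and 12.4 CPM in the isolated libraries. Isolated replicate 2 was low, and isolated replicate 1 lay just under group-housed replicate 1 (log2 fold change -0.49, SE 0.21, edgeR adjusted p = 0.974). Kcns2, a silent subunit that showed no separation, measured 45.8 and 50.1 CPM in the group-housed and 55.02 and 43.1 CPM in the isolated replicates. The other 5 tested silent genes gave log2 fold changes from -0.25 (Kcns3) to 0.18 (Kcns1), and Kcng1, Kcng2 and Kcnv1 lay between -0.19 and -0.02. Kcng3, which was not tested, had 0 and 5 counts in group-housed and 14 and 6 counts in isolated replicates.

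The Kv3 genes Kcnc4, Kcnc2 and Kcnc1, which serve fast spiking, had lower isolated means. Kcnc4, a rapidly inactivating Kv3 subunit, measured 117 and 111 CPM in the group-housed and 105 and 93.8 CPM in the isolated replicates. Its groups did not overlap, at 114 ± 3.80 and 99.4 ± 7.88 CPM (SD, n = 2 per group), with a log2 fold change of -0.20 (SE 0.07), an edgeR quasi-likelihood adjusted p = 0.875 (unadjusted p = 0.0247). Without isolated replicate 2 the log2 fold change of Kcnc4 was -0.12, and without isolated replicate 1 it was -0.28. Kcnc2, a delayed rectifier of fast-spiking cells, measured 123 and 121 CPM in the group-housed and 115 and 84.5 CPM in the isolated replicates. The groups of Kcnc2 did not overlap, but isolated replicate 2 lay far below the other 3 libraries (log2 fold change -0.29, SE 0.12, edgeR quasi-likelihood unadjusted p = 0.0409 and adjusted p = 0.939). Kcnc1, its close relative, measured 158 and 155 CPM in the group-housed and 157 and 124 CPM in the isolated libraries. Isolated replicate 1 lay between the group-housed values, and only isolated replicate 2 was low (log2 fold change -0.16, SE 0.10).

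Several of these estimates turned on 1 isolated library. Without isolated replicate 1, isolated replicate 2 stood alone and was assumed to vary like the group-housed libraries. For 4 genes picked from that fit, the log2 fold changes were -0.53 for Kcnc2, -0.93 for Kcnf1, -0.34 for Kcnc1 and 0.47 for Kcng4. Without isolated replicate 2 the values were -0.09 for Kcnc2, -0.15 for Kcnf1, 0.0042 for Kcnc1 and 0.10 for Kcng4. In isolated replicate 2 the summed level of 10 thalamic markers was 566 CPM, beside 744 CPM in isolated replicate 1 and 769 and 887 CPM in the group-housed libraries. That of 7 ependymal markers was 144 CPM in isolated replicate 2, beside 66.1 to 73.1 CPM in the other 3. The part of tissue composition in these values was not tested.

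**Figure D3:**
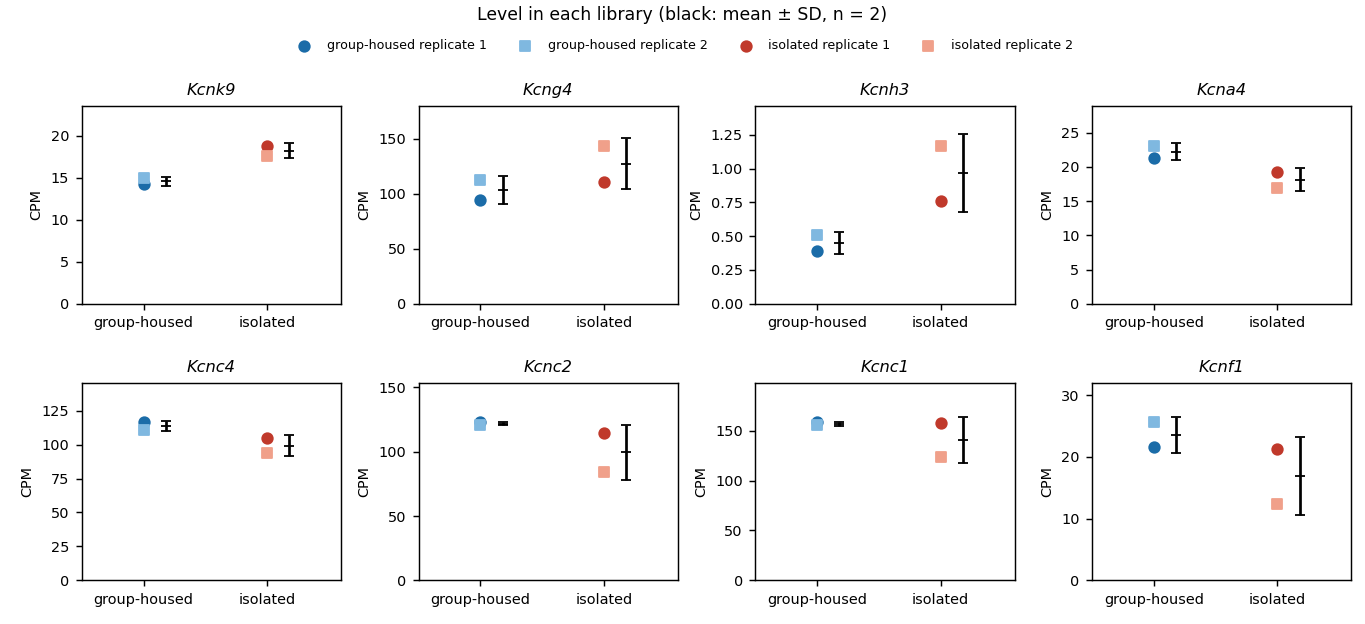
Level in CPM (y axis, from 0) of 6 channel genes with an unadjusted p below 0.05 and of Kcnc1 and Kcnf1, in group-housed and isolated libraries (x axis), with each library as a point and the mean ± SD in black. For Kcnk9 the isolated pair lies together above the group-housed pair, while for Kcnc2, Kcnc1 and Kcnf1 isolated replicate 2 lies apart at 84.5, 124 and 12.4 CPM.

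Of the 8 EAG, ERG and ELK genes, 5 differed by under 0.1 on the log2 scale between the groups. Kcnh2, the ERG gene known from the heart and the most abundant of the 8, measured 118 and 114 CPM in the group-housed and 119 and 112 CPM in the isolated replicates. The groups of Kcnh2 overlapped fully (116 ± 2.62 and 116 ± 4.85 CPM, SD, n = 2 per group), with a log2 fold change of -0.00091 and an SE of 0.06. Kcnh5, an EAG gene and second in level, measured 34.9 and 37.4 CPM in the group-housed and 41.4 and 38.5 CPM in the isolated libraries. Its groups did not overlap (log2 fold change 0.15, SE 0.08, edgeR adjusted p = 0.979). Without isolated replicate 1 the value of Kcnh5 was 0.09. Kcnh6, a second ERG gene, stood at 6.82 and 7.501 CPM in the group-housed and 7.38 and 7.999 CPM in the isolated replicates, which overlapped (0.10, SE 0.15).

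Kcnh3, an ELK gene of forebrain neurons, had the highest fold change of the 40 tested genes and the third lowest level per kilobase of the 43. Its counts were 8 and 13 in group-housed and 20 and 31 in isolated replicates, or 0.390 and 0.505 against 0.761 and 1.17 CPM. The groups of Kcnh3 did not overlap, and the log2 fold change was 1.09 with an SE of 0.39, an edgeR quasi-likelihood adjusted p = 0.863 (unadjusted p = 0.0235). Beside it, the summed level of 9 hippocampal and cortical markers was 357 and 364 CPM in the group-housed and 412 and 449 CPM in the isolated libraries, with higher isolated means for 5 of the 7 tested and none at 0 in any library. Their part in the values of Kcnh3 was not tested. The other ELK genes, Kcnh8 and Kcnh4, gave log2 fold changes of 0.09 and -0.03, the EAG gene Kcnh1 gave -0.05 and the ERG gene Kcnh7 gave -0.10.

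Kcnt1, the slack gene, whose channel opens with internal sodium, stood at 116 and 137 CPM in the group-housed and 131 and 137 CPM in the isolated replicates. Group-housed replicate 1 was the low library, and the groups overlapped (log2 fold change 0.08, SE 0.08). The slick gene Kcnt2 was lower in level, at 8.08 and 9.06 CPM in the group-housed and 8.79 and 5.74 CPM in the isolated libraries. Isolated replicate 2 was again the low one (-0.24, SE 0.20), and an antisense gene overlaps Kcnt2 over 102 exonic bases.

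Of the 10 tested two-pore genes, 6 differed by under 0.1 on the log2 scale, and the smallest p-value belonged to a gene of the acid-sensitive TASK class. Kcnk9, a TASK subunit that contributes to resting potassium leak, measured 14.2 and 14.9 CPM in the group-housed and 18.8 and 17.6 CPM in the isolated replicates. The isolated pair lay above the group-housed pair by more than the spread within either, at 14.6 ± 0.499 and 18.2 ± 0.859 CPM (SD, n = 2 per group), which is 1.251 times the group-housed mean. The log2 fold change of Kcnk9 was 0.32 (SE 0.10), with an unadjusted p = 0.0116 in edgeR's test, the smallest of the 40 genes, and an adjusted p = 0.780. The gene spans chr15:72501089-72546340 on the minus strand, and no exon of another annotated gene overlaps its exons. Its log2 fold change lay between 0.27 and 0.37 when any 1 library was left out and in all other settings tried. Beside it, 8 of 10 medial habenula markers also separated this way (17.4% of all genes), with summed levels of 1267 and 1171 CPM in the group-housed and 1609 and 1629 CPM in the isolated libraries and no marker at 0. The part of medial habenula tissue in the difference was not tested.

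Kcnk3, the related TASK gene with which Kcnk9 can form mixed channels, measured 34.2 and 32.3 CPM in the group-housed and 35.0 and 31.3 CPM in the isolated replicates. The groups of Kcnk3 overlapped and their means were 33.2 ± 1.40 and 33.1 ± 2.58 CPM (SD, n = 2 per group; log2 fold change -0.0035, SE 0.09), and Kcnk3 stood above Kcnk9 on the scale per kilobase (8.35 against 1.33). Kcnk1, a TWIK gene of neurons and astrocytes and the most abundant two-pore gene, stood at 78.1 and 80.3 CPM in the group-housed and 81.5 and 71.4 CPM in the isolated libraries, which overlapped (-0.05, SE 0.08). Kcnk5, an alkaline-sensitive channel with low levels, measured 1.66 and 0.855 CPM in the group-housed and 0.685 and 1.09 CPM in the isolated libraries, with overlapping groups and an SE of 0.41.

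The mechanosensitive and lipid-sensitive TREK and TRAAK genes gave log2 fold changes of -0.06 (Kcnk2), 0.02 (Kcnk10) and -0.25 (Kcnk4, whose exons overlap those of Catsperz on the same strand). The THIK genes gave 0.14 (Kcnk12) and -0.04 (Kcnk13). Kcnk13 is known as the main two-pore channel of microglia, and its values of 21.3 and 16.2 CPM in the group-housed and 19.2 and 17.3 CPM in the isolated libraries spread most within the group-housed pair. The summed level of 10 microglial markers was 439 and 397 CPM in those group-housed libraries, and 382 and 378 CPM in the isolated ones. Kcnk6, the second TWIK gene, gave -0.03.

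Partners of these channels were read from the same fit. Of 15 genes that assemble or cluster Kv1 channels, 0 passed, 3 had both isolated libraries above (17.4% of all genes) and 5 below both group-housed ones (16.3% of all genes), and the median log2 fold change was -0.05. Dlg4, the scaffold that binds Kv1 tails, had the highest mean CPM of them, though not the highest level per kilobase of exon. It gave -0.03 with overlapping groups. Adam11, a membrane protein needed for Kv1 at some nerve terminals, had the smallest p of the list, at 212 and 216 CPM in the group-housed and 251 and 257 CPM in the isolated libraries (log2 fold change 0.25, SE 0.06, edgeR quasi-likelihood adjusted p = 0.570). The β subunit genes Kcnab1 and Kcnab2, picked out after their values were seen, measured 24.9, 27.6, 21.04 and 15.3 CPM and 191, 196, 172 and 164 CPM in the order group-housed 1 and 2, isolated 1 and 2. Both isolated values lay below both group-housed ones for each (-0.53 and -0.21, edgeR adjusted p = 0.639 and 0.769), and exons of each overlap those of another annotated gene. Kcnab3, the other β subunit gene listed, gave -0.05 with overlapping groups.

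Of 3 Kv2 partners at membrane contact sites none passed, with a median of -0.0028. Vapb, the more abundant contact protein gene, gave -0.0028 and Vapa -0.07. Of the 9 genes listed as partners of Kv3, EAG-type and slack channels, 6 were tested, 0 passed, 5 had both isolated libraries below both group-housed ones (16.3% of all genes) and 0 above (17.4% of all genes), and the median was -0.12. Of 6 two-pore partners 0 passed, with a median of -0.0038. Ywhaz, a 14-3-3 gene whose protein aids surface transport of TASK channels, gave -0.08, and Akap5, an anchoring protein gene, gave 0.15.

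Of 29 pore-forming genes of other potassium channel families, 24 were tested and 0 passed in the quasi-likelihood test, with 5 having both isolated libraries above (17.4% of all genes) and 4 below both group-housed ones (16.3% of all genes), shares near the background, and a median log2 fold change of 0.01. Kcnma1, the large-conductance calcium-activated channel, had the highest mean CPM of them over all libraries (879, beside 826 for Kcnj10). Per kilobase of exon Kcnj10 stood higher (153 against 51.8). Kcnma1 measured 772 and 759.5 CPM in the group-housed and 978 and 1006 CPM in the isolated libraries. The groups of Kcnma1 lay apart (log2 fold change 0.37, SE 0.08, edgeR quasi-likelihood unadjusted p = 0.000935 and adjusted p = 0.328). DESeq2 and edgeR's exact test did call Kcnma1 (adjusted p = 0.000179 and 0.000294). Limma-voom and the quasi-likelihood fit with a replicate block did not (adjusted p = 0.220 and 0.0664). Exons of Kcnma1 overlap those of 4930519K11Rik on the opposite strand.

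The library pattern of the Kv3 genes can be set beside that of tissue markers. With each gene centred on its 4-library mean, the median log2 level of the Kv3 genes was 0.12 and 0.07 in group-housed and 0.08 and -0.22 in isolated replicates. Thalamic markers stood at 0.15 and 0.32 in group-housed and -0.01 and -0.44 in isolated replicates, so isolated replicate 2 was lowest for both lists. It was also lowest, by less, for the Kv1 (-0.12), silent Kv (-0.15), slack and slick (-0.18) and two-pore genes (-0.09), and for the markers of the lateral habenula (-0.15), of neurons in general (-0.08) and of microglia (-0.09). Medial habenula markers stood at -0.16 and -0.30 in group-housed and 0.23 and 0.26 in isolated replicates. General neuronal markers differed little, with summed levels of 4503 and 4273 CPM in the group-housed and 4422 and 4059 CPM in the isolated libraries. Whether tissue composition had a part in these library patterns was not tested.

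**Figure D4:**
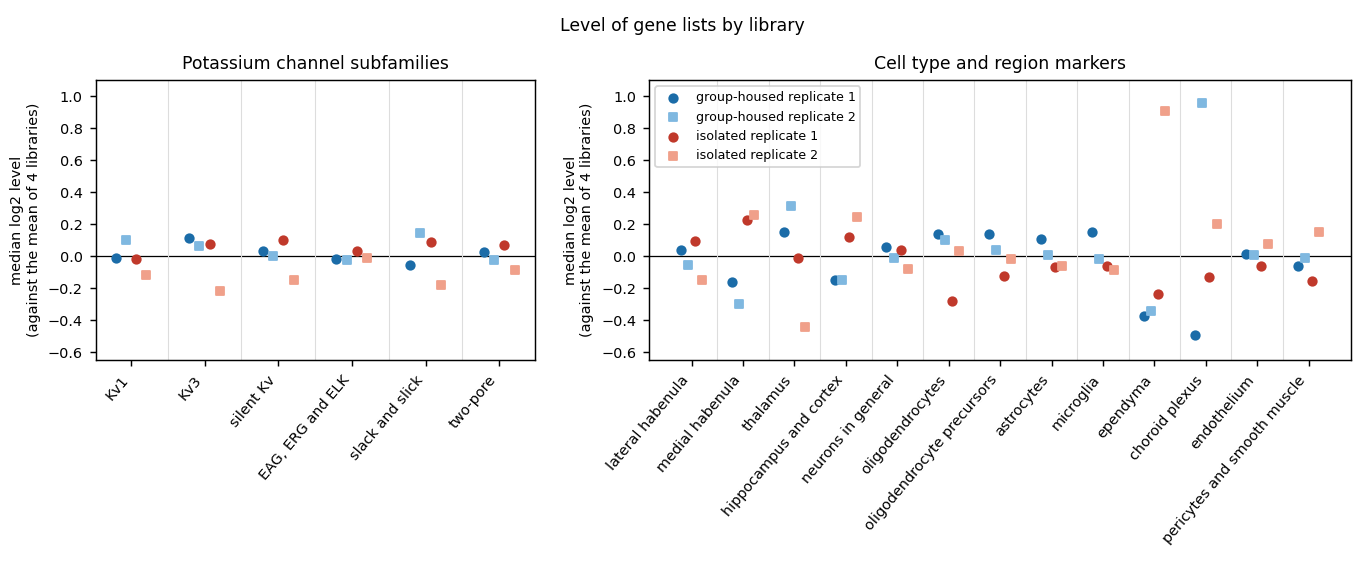
Median log2 level of channel subfamilies (left) and each marker list (right) in the 4 libraries, centred on each gene's own mean (y axis, log2 of CPM plus 0.1). Isolated replicate 2 is lowest for the Kv1, Kv3, silent Kv, slack and slick, and two-pore genes and for the thalamic, lateral habenula, general neuronal and microglial markers, with -0.22 for Kv3 and -0.44 for thalamus, and the medial habenula list is above 0 in both isolated replicates.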

How the data were processed

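RNA from the lateral habenula was measured in 4 libraries, prepared with TruSeq Stranded mRNA LT, a kit that marks strand, per the labels' protocols. Per the submitters' processing notes, GRCm38, edgeR, HTSeq, TopHat2 2.1.1 and CASAVA were used, in roles not given there. The authors deposited raw read counts per Ensembl gene, which were used for every test; their normalised values were not used. Groups came from the sample titles. GENCODE M21 (GRCm38) matched 53360 of 53465 identifiers and gave symbols, exon lengths and coordinates. The members and gene lists were chosen with earlier results of these data known. All genes were fitted with edgeR 4.0.16 in R 4.3.3 (TMM, filterByExpr, glmQLFit and glmQLFTest, no covariate, 2-sided, Benjamini-Hochberg, threshold 0.05). The common biological coefficient of variation was 7.20% and the residual degrees of freedom were 2. To these the quasi-likelihood test added 6.55 prior degrees of freedom, borrowed from the spread of all tested genes. An SE is the log2 fold change divided by the root of F. An exact permutation test of 2 against 2 libraries cannot reach 0.05, so none was run. The 2 libraries of each group differed by more than counting noise (chi-square per degree of freedom 5.05 and 7.57). The procedure was tested on simulated data in which 200 genes were changed by 1 or 2 on the log2 scale. That test does not cover the smaller differences of most channel genes. Limits from counts cover counting error only. Alternatives were DESeq2 1.42.0, limma-voom (limma 3.58.1), edgeR's exact test, DESeq2 size factors, 2 other filters, a replicate block and leaving out each library. Members named were, per subfamily, the 2 highest per kilobase, the 2 with the largest change at 1 CPM or more, and any with an unadjusted p below 0.05. Partners named were, per list, the gene with the highest mean CPM and that with the smallest p. The values of some genes that entered the fit and the counts are not reported here.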

Additional observations from a re-analysis of the deposited data

How the results depend on the processing

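No channel gene passed with all 4 libraries in any setting tried. Over all genes the quasi-likelihood test called 2 as higher and 0 as lower. DESeq2 called 42 and 11, edgeR's exact test 67 and 15, and the fit with a replicate block 52 and 12. Same-numbered libraries deviated together with a correlation of 0.141, which with 2 numbers does not establish pairing, and the block changed no call of a channel gene. Leaving out 1 library gave 0 to 151 higher and 0 to 70 lower over all genes, and 0 to 1 higher and 0 to 3 lower among channel genes. Channel genes at an unadjusted p below 0.05 were 4 higher and 3 lower; the higher became 2 with DESeq2 and 2 with a mean of at least 5 CPM, and the lower 6 with the block.

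In fits without 1 library, which have fewer samples to separate, 10 to 19 channel genes had isolated values above and 10 to 20 below the group-housed ones. The share over all genes was not counted in these fits, so these counts are not read as a result about channel genes. Median log2 fold changes then ran from -0.09 to 0.04 over all channel genes, -0.17 to -0.032 for Kv1, -0.27 to 0.13 for silent Kv, 0.0060 to 0.068 for EAG, ERG and ELK, -0.12 to 0.041 for two-pore, and -0.24 to 0.04 for slack and slick genes. For Kv3 genes the range was -0.31 (without isolated replicate 1) to -0.04 (without isolated replicate 2). The sign turned for 10 named genes: Kcna2 (-0.015 to 0.17), Kcna5 (-0.66 to 0.020), Kcnc1 (-0.34 to 0.0042), Kcns2 (-0.16 to 0.20), Kcnh2 (-0.045 to 0.042), Kcnt1 (-0.033 to 0.20), Kcnt2 (-0.58 to 0.033), Kcnk1 (-0.15 to 0.042), Kcnk3 (-0.086 to 0.075) and Kcnk5 (-0.90 to 0.058). With a mean of at least 5 CPM, Kcnh2 was 0.0040 and Kcnk3 0.0012. The cause was not tested. With 2 libraries per group, small differences could not be resolved.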
